A study of Mus musculus with 6 samples.

Results

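The genes described here are 3 globin genes and 6 genes of haem synthesis, 9 of the 18193 genes with a probe set of their own on the array. They are Hba-a1, Hbb-b2 and Hbb-bh1 among the globins and Alas1, Alas2, Urod, Cpox, Ppox and Fech among the enzymes. They were taken by name: each probe set whose annotation gave a single symbol from this list was kept, which gave 21 of 45037 probe sets, and each probe set is reported on its own. Expression was measured on Affymetrix mouse arrays in sorted bone marrow cells. There were 3 arrays of c-Myc N-Myc double knockout (dKO) cells, from MxCre c-myc flox2 N-myc flox2 mice, and 3 arrays of Control cells, from c-myc flox2 N-myc flox2 mice without MxCre. Each dKO array held a pool of 3 mice and each Control array a pool of 2. All mice were 8 weeks old and of mixed background. All received 2 daily injections of pI-pC, an inducer of interferon that switches on the MxCre recombinase, and cells were taken 3 days after the last one. MxCre acts in many interferon-responsive cells besides progenitors, and since only dKO mice carried it, its own effect and the loss of both genes cannot be told apart. Cells were sorted as Lin- Sca1+ CD150+ CD48+, which the design text calls committed progenitors. For Control 1 alone the tissue entry reads LT-HSCs, although its gate and title match those of the other arrays. In the bulk RNA of such a sort, fewer cells of a type and less RNA per cell cannot be told apart.

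Haemoglobin is built from alpha and beta globin chains, each of which holds a haem group. Haem is made in a pathway that begins in the mitochondrion, where a delta-aminolevulinate synthase (Alas1 in most cells, Alas2 in erythroid cells) joins glycine and succinyl-CoA, passes through the cytosol (by enzymes that include Alad, Uros and Urod), and ends in the mitochondrion with Cpox, Ppox and Fech, the last of which inserts iron. Erythroid cells raise globin and haem enzyme transcripts as they mature, under transcription factors such as GATA1, KLF1 and TAL1, while every cell makes some haem for its cytochromes.

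Windows of RefSeq sequence (GRCm38.p6) are shown, each the 250 bases before the annotated start. They set Alas2, Cpox and Hba-a1 beside Urod, whose groups overlapped. Alas2 and Cpox had a probe set at which every dKO array lay above every Control array. For Hba-a1 this held only at probe sets shared with Hba-a2, which were added after their values were seen. The groups overlapped at the probe set of Hba-a1 alone. Capitals mark matches, on either strand, to AGATAA or TGATAA (sequences of the GATA type), to CCACCC (the CACCC type recognised by Krüppel-like factors) or to CACGTG (the E-box recognised by MYC with MAX). Sequences read 5′ to 3′ on the gene's strand.
Alas2, chrX:150547167-150547416, plus strand: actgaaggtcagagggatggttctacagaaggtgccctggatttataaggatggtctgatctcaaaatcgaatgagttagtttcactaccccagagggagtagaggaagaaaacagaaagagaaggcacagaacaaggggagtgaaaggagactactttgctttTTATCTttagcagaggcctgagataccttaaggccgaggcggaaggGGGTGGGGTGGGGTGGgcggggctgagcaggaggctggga
Cpox, chr16:58669958-58670207, plus strand: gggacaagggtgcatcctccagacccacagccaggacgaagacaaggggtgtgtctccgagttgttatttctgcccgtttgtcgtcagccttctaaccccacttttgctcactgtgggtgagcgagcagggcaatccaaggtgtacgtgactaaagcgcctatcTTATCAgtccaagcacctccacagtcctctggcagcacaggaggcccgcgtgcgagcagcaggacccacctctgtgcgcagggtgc
Hba-a1, chr11:32283422-32283671, plus strand: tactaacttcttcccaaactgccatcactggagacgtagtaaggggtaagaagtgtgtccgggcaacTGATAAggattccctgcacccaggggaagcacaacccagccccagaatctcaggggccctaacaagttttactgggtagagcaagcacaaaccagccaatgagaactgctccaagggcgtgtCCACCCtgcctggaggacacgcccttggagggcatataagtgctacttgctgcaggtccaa
Urod, chr4:116994414-116994663, minus strand: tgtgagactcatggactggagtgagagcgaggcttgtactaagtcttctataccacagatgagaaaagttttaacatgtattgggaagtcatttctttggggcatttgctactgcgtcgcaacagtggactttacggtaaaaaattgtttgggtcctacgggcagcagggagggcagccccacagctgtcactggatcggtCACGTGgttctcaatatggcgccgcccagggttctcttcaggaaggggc
The Alas2 window held AGATAA on the minus strand, beginning 86 bases before the start, and 3 matches to CCACCC at 40, 35 and 30 bases, each of which shares a base with the next. The Cpox window held TGATAA on the minus strand, also 86 bases before the start. In the Hba-a1 window TGATAA lay 183 bases and CCACCC 61 bases before the start, and in the Urod window CACGTG lay 49 bases before it. Of 32851 such windows of all genes, 9.99% held AGATAA, 7.94% TGATAA, 28.1% CCACCC and 6.02% CACGTG. Windows were given for 6 of the 9 genes; that of Ppox and 1 of the 2 of Alas1 held none of these letters, and the other Alas1 window held CCACCC 228 bases before the start. A match describes the letters only.

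The array values are on the log2 scale as the authors deposited them, so a difference of 1 is a doubling. Array medians lay between 5.90 and 5.94. Changes are log2 fold changes, dKO minus Control, from a limma fit over all 45037 probe sets, with the standard error (SE) of that fit and p adjusted by Benjamini-Hochberg over all of them; a probe set was called at an adjusted p under 0.05. Myc at its only probe set averaged 7.77 ± 0.29 in dKO and 10.74 ± 0.24 in Control (SD, n = 3 each; limma adjusted p = 0.000458), and the Mycn probe set 1417155_at averaged 4.05 ± 0.68 in dKO and 9.33 ± 0.35 in Control (limma adjusted p = 0.00029), while 2 other Mycn probe sets were not called. Of the gate genes, Cd48 changed by 0.20 ± 0.19 and the 3 Slamf1 (CD150) probe sets by 0.73 ± 0.27, 0.74 ± 0.32 and 0.78 ± 0.35; none was called (limma adjusted p from 0.229 to 0.697), although 2 of the Slamf1 95% intervals lay above 0. Ly6a (Sca1) had no probe set of its own. Kit, which was not in the gate, was called at neither of its 2 probe sets. Xist, the RNA of the inactive X, stood at 10.50 in dKO 1 and 9.10 in Control 1 (probe set 1427262_at), and between 5.03 and 5.86 in the other 4 arrays.

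Adult beta globin and Cpox were higher in dKO, and no member was called lower. Of the 21 probe sets, 4 were called, against 3.6% of all probe sets: 4 were higher and 0 lower, against 1.83% and 1.78%. At an unadjusted limma p under 0.05 the members counted 7, against 15.9% of all probe sets. The 4 called belong to 2 of the 9 genes: 1 of 2 Hbb-b2 probe sets and 3 of 3 Cpox probe sets. The groups did not overlap at 8 of the 21 (6 higher and 2 lower in dKO), against 21.3% of all probe sets (10.7% higher and 10.6% lower). The 4 other probe sets without overlap were the second one of Hbb-b2 and that of Alas2, both higher in dKO, and 1 each of Alas1 and Ppox, both lower. The median log2 fold change was 0.02 over the members and 0.03 over all probe sets.

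**Figure D1:**
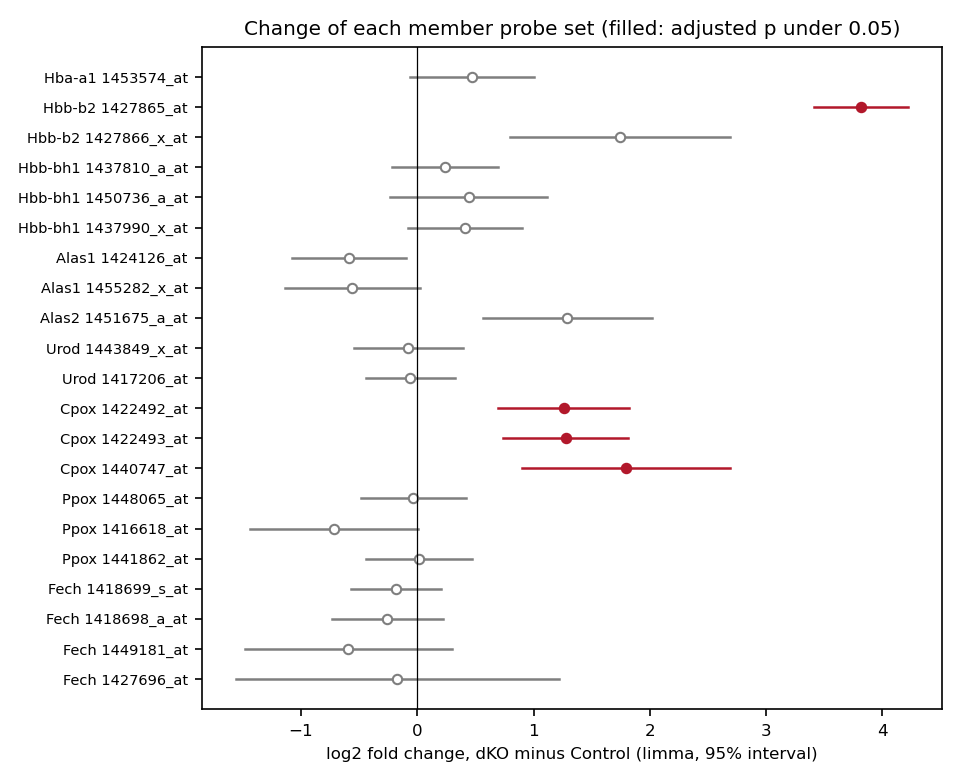
Log2 fold change (dKO minus Control) of each of the 21 probe sets, globins at the top and haem enzymes below in the order of the pathway; points are limma estimates, lines their 95% intervals, and filled points have an adjusted p under 0.05. Hbb-b2 1427865_at lies at 3.82 and the 3 Cpox probe sets between 1.26 and 1.80; the intervals of all other members except Hbb-b2 1427866_x_at, Alas2 and Alas1 1424126_at include 0.

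Hbb-b2 encodes an adult beta chain. Its probe set 1427865_at read 11.11, 10.77 and 10.83 in dKO arrays 1, 2 and 3, against 7.20, 7.12 and 6.94 in Control arrays 1, 2 and 3. The lowest dKO array thus stood far above the highest Control array, and the arrays of each group lay close together. The rise was 3.82 ± 0.18 (SE), or 14.1-fold (limma adjusted p = 9.01e-05), the 18th highest of all probe sets. It was called with any single array left out, at adjusted p from 0.000437 to 0.00165.

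The second probe set, 1427866_x_at, whose suffix marks probes that may bind other transcripts, was dimmer. It read 6.88, 4.98 and 5.58 in dKO, against 4.03, 4.22 and 3.97 in Control. The groups did not overlap, but the dKO arrays were spread widely, with dKO 1 highest. The difference of 1.74 ± 0.42 did not pass (limma adjusted p = 0.0619), but it passed without dKO 2 (adjusted p = 0.0346), with the variance trend (0.0371) and with array weights (0.0247).

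A further probe set, 1417184_s_at, was annotated to 4 adult beta genes at once (Hbb-bt, Hbb-bs, Hbb-b2 and Hbb-b1) and so is not assigned to any of them; it was added after its values were seen. It read 13.04, 12.88 and 12.67 in dKO, against 8.87, 7.98 and 7.93 in Control. The dKO mean lay at the 99.9th percentile of all probe sets and the Control mean at the 82.3rd. The rise of 4.60 ± 0.27, or 24.3-fold, was the 8th highest of all probe sets (limma adjusted p = 0.000197). Hbb-b1 and Hbb-b2 are the adult beta genes of the diffuse haplotype and Hbb-bs and Hbb-bt those of the single haplotype of inbred mice. The labels give a mixed background and no haplotype for these pools, and its part in the signal of the Hbb-b2 probe sets was not tested.

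Hba-a1, which encodes an adult alpha chain, had 1 probe set of its own, and that was dim in both groups. Probe set 1453574_at read 3.96, 3.21 and 3.97 in dKO, against 3.22, 3.34 and 3.17 in Control, with dKO 2 inside the Control range. The change of 0.47 ± 0.23 did not pass (limma adjusted p = 0.39), and its 95% interval ran from -0.0647 to 1.002. The group means lay at the 16.4th and 12.0th percentile of all probe sets in dKO and Control.

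Brighter alpha globin signal came from 3 probe sets annotated to Hba-a2 and Hba-a1 together, also added after their values were seen. At 1428361_x_at the arrays read 9.55, 8.36 and 9.47 in dKO, against 7.59, 7.53 and 6.87 in Control, a rise of 1.80 ± 0.34 or 3.47-fold (limma adjusted p = 0.0267). At 1452757_s_at they read 9.10, 7.88 and 8.45 in dKO, against 6.97, 6.66 and 5.46 in Control, a rise of 2.11 ± 0.43 or 4.33-fold (adjusted p = 0.0327). The groups did not overlap at either. At 1417714_x_at dKO 1 stood at 8.10, far above the 5.82 and 5.70 of the other dKO arrays, against 5.04, 4.97 and 4.02 in Control, and the difference of 1.87 ± 0.60 did not pass (adjusted p = 0.156). With single arrays left out, the call at 1428361_x_at was kept only without dKO 2 and was lost without any of the other 5 arrays, at adjusted p from 0.0526 to 0.0968. That at 1452757_s_at was kept without dKO 2 or Control 1 and lost without any of the other 4, at adjusted p from 0.0721 to 0.0997. The single probe set of Hba-a2 alone, 1427219_at, changed by 0.02 ± 0.18 (adjusted p = 0.98) at a level of 11.76 ± 0.16 in dKO and 11.74 ± 0.15 in Control. The probe sequences behind these differing values were not used here.

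Hbb-bh1 is an embryonic beta-like globin gene of the primitive erythroid lineage. Its probe set 1437810_a_at read 6.21, 5.998 and 6.31 in dKO, against 6.08, 5.62 and 6.12 in Control. The groups overlapped there and at 1450736_a_at and 1437990_x_at. The 3 changes ran from 0.24 to 0.44, none of them called (limma adjusted p from 0.416 to 0.661), and the 95% intervals together spanned -0.23 to 1.12. At 1450736_a_at dKO 1 stood at 4.90 and the other 5 arrays between 3.68 and 3.96.

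The other embryonic globins were not called either. Hba-x changed by 0.11 ± 0.21. The 3 probe sets of Hbb-y, a further embryonic beta-like gene, changed by 0.35, 0.89 and 1.01 (limma adjusted p from 0.471 to 0.582). At 1436717_x_at and 1436823_x_at of Hbb-y, dKO 1 read 5.16 and 5.01, whereas the other 5 arrays lay between 2.13 and 2.61. The array dKO 1 was the highest of the 6 at 10 of the 15 globin probe sets with 1 or several symbols, at 14 of 28 probe sets of the erythroid markers and at 17.2% of all probe sets.

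**Figure D2:**
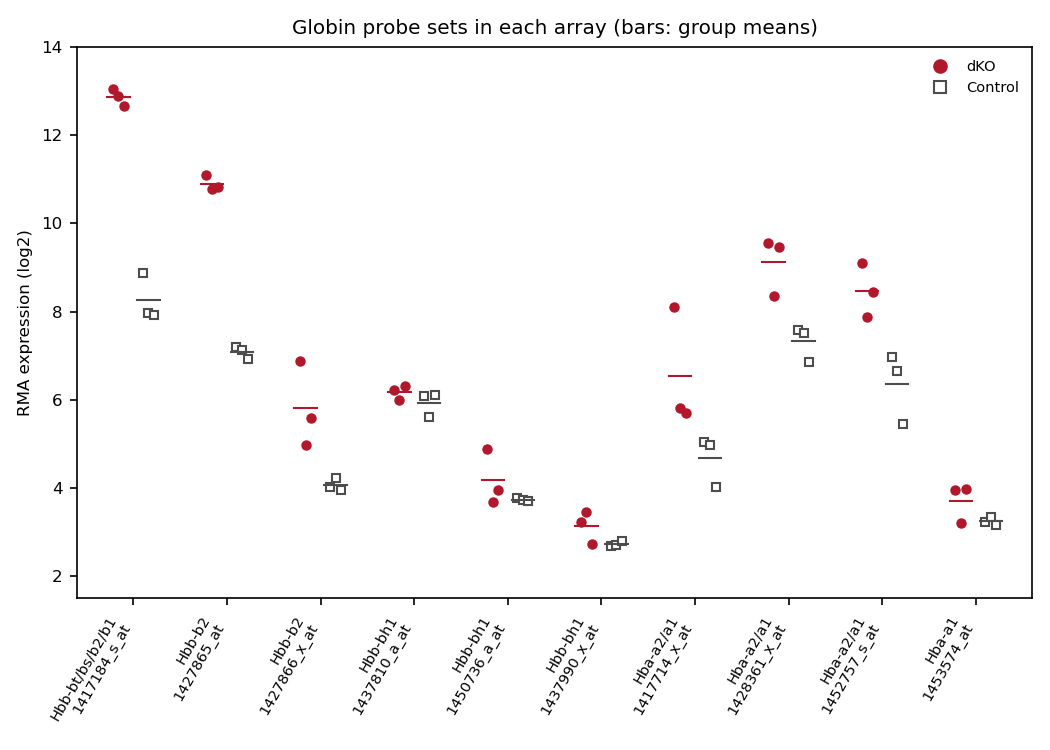
RMA expression (log2) of adult and embryonic globin probe sets in each array, dKO as filled circles to the left of Control as open squares, with bars at the group means; slashes join the symbols of probe sets annotated to several genes. The dKO arrays stand above the Control arrays at the adult beta and shared alpha probe sets. The rise is 14.1-fold at Hbb-b2 1427865_at and 24.3-fold at the shared beta probe set. The groups overlap at the 3 Hbb-bh1 probe sets and at Hba-a1. The probe sets of Hba-a2 alone, Hba-x and Hbb-y are not drawn.

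Alas1 and Alas2 carry out the same entry step. The Alas2 probe set 1451675_a_at read 7.20, 6.49 and 6.01 in dKO, against 5.64, 5.31 and 4.89 in Control. Each dKO array lay above each Control array, with 6.01 in dKO 3 as the lowest and 5.64 in Control 1 as the highest across the gap. The difference of 1.29 ± 0.32, or 2.44-fold, did not pass over all probe sets (limma adjusted p = 0.0701; 95% interval 0.56 to 2.01). It passed when only the brightest probe set of every gene was tested (adjusted p = 0.0423), without dKO 3 (0.044), with the replicate block (0.0222) and with array weights (0.0191), and it reached 0.226 without Control 3. Alas2 lies on the X chromosome, and the pools with Xist signal had the highest Alas2 value of their groups. Within those pools dKO 1 exceeded Control 1 by 1.56, and among the other pools the dKO mean exceeded the Control mean by 1.15. Each group held a single pool with Xist signal, and the part of the X chromosome in the Alas2 values was not tested.

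Alas1, the form that most tissues use, had estimates below 0 at both of its probe sets and was called at neither. Probe set 1424126_at read 6.23, 6.39 and 6.54 in dKO, against 6.60, 7.06 and 7.27 in Control. The groups did not overlap, but dKO 3 and Control 1 lay close to each other. The change was -0.59 ± 0.22 (limma adjusted p = 0.218; 95% interval -1.08 to -0.10). Probe set 1455282_x_at changed by -0.56 ± 0.25 (adjusted p = 0.333), with dKO 3 above Control 1.

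Between the synthase and the last mitochondrial steps lie steps that include those of Alad, Uros and Urod. Alad, which joins the products of the synthase into porphobilinogen, stood at 9.12 ± 0.11 in dKO and 8.38 ± 0.10 in Control at probe set 1424877_a_at, and its rise of 0.74 ± 0.17 lay at the threshold (limma adjusted p = 0.0495). It was lost without any single array, at adjusted p from 0.0783 to 0.191. A dimmer Alad probe set changed by 0.11 ± 0.29 and the 2 Uros probe sets by 0.01 ± 0.19 and 0.46 ± 0.23, none of them called.

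Urod, the decarboxylase that makes coproporphyrinogen, was not called. Its dKO arrays lay close together (SD 0.06 and 0.07 at its 2 probe sets), the Control arrays less so (SD 0.33 and 0.15). Probe set 1443849_x_at read 10.11, 10.03 and 9.98 in dKO, against 10.05, 10.48 and 9.82 in Control. Probe set 1417206_at read 8.72, 8.84 and 8.71 in dKO, against 8.90, 8.91 and 8.65 in Control. The groups overlapped at both. The changes were -0.08 ± 0.21 and -0.06 ± 0.17, with 95% intervals from -0.55 to 0.39 and from -0.45 to 0.32.

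Cpox, the oxidase that turns coproporphyrinogen into protoporphyrinogen, rose at each of its probe sets. The brightest, 1422492_at, read 9.59, 9.18 and 8.88 in dKO, against 8.17, 8.13 and 7.57 in Control. It rose by 1.26 ± 0.25, or 2.39-fold (limma adjusted p = 0.0302). Probe set 1422493_at read 8.35, 8.32 and 7.64 in dKO, against 6.60, 6.85 and 7.03 in Control. Its rise was 1.28 ± 0.24, or 2.42-fold (adjusted p = 0.0244), nearly the same as that of the brightest. The dimmest, 1440747_at, read 6.37, 5.40 and 4.54 in dKO, against 3.63, 3.65 and 3.64 in Control. Here the Control arrays were nearly equal and the dKO arrays spread over almost 2 log2 units; the rise was 1.80 ± 0.39, or 3.48-fold (adjusted p = 0.0447). The groups did not overlap at any of the 3, although dKO 3 was the lowest dKO array at each.

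With single arrays left out, all 3 probe sets were called without dKO 3 (adjusted p from 0.0117 to 0.0322), and none was called without any of the other 5 arrays, where the adjusted p ran from 0.0574 to 0.141. After a further quantile normalization or cyclic loess, 1440747_at was not called (adjusted p = 0.0781 and 0.0863) and the other 2 were. The log2 fold changes stayed between 1.04 and 2.24 under all alternatives. Without Control 1 and dKO 1, the pools with Xist signal, the changes were 1.18, 1.04 and 1.32 and none was called (adjusted p from 0.128 to 0.199). The 3 probe sets measure 1 gene in the same pools and are not independent of each other.

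Ppox, which oxidises protoporphyrinogen, was called at none of its 3 probe sets. Its probe set 1448065_at read 7.25, 7.25 and 7.52 in dKO, against 7.06, 7.57 and 7.48 in Control, a change of -0.03 ± 0.20 (limma adjusted p = 0.966) with the groups overlapping. At 1416618_at the arrays read 6.27, 7.58 and 7.33 in dKO, against 7.76, 7.70 and 7.87 in Control. The groups did not overlap there, with dKO 1 far below the rest, and the change of -0.72 ± 0.32 did not pass (adjusted p = 0.316); without dKO 1 it was -0.32. Its probe set 1441862_at lay near the lower end of the scale, at 2.46 ± 0.09 in dKO and 2.45 ± 0.31 in Control.

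Fech, the ferrochelatase that puts iron into protoporphyrin, had estimates below 0 at all 4 of its probe sets and was called at none. The brightest, 1418699_s_at, read 8.37, 8.27 and 8.29 in dKO, against 8.47, 8.67 and 8.33 in Control, and the next, 1418698_a_at, read 8.18, 7.84 and 7.59 in dKO, against 8.25, 8.24 and 7.89 in Control. The groups overlapped at all 4. These 2 changed by -0.18 ± 0.17 and -0.26 ± 0.21 (limma adjusted p = 0.703 and 0.645), with 95% intervals from -0.57 to 0.21 and from -0.74 to 0.22. The dimmer probe sets 1449181_at and 1427696_at changed by -0.59 ± 0.39 and -0.17 ± 0.61, and single dKO arrays stood low at each: dKO 3 at 5.59 and dKO 1 at 2.93.

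**Figure D3:**
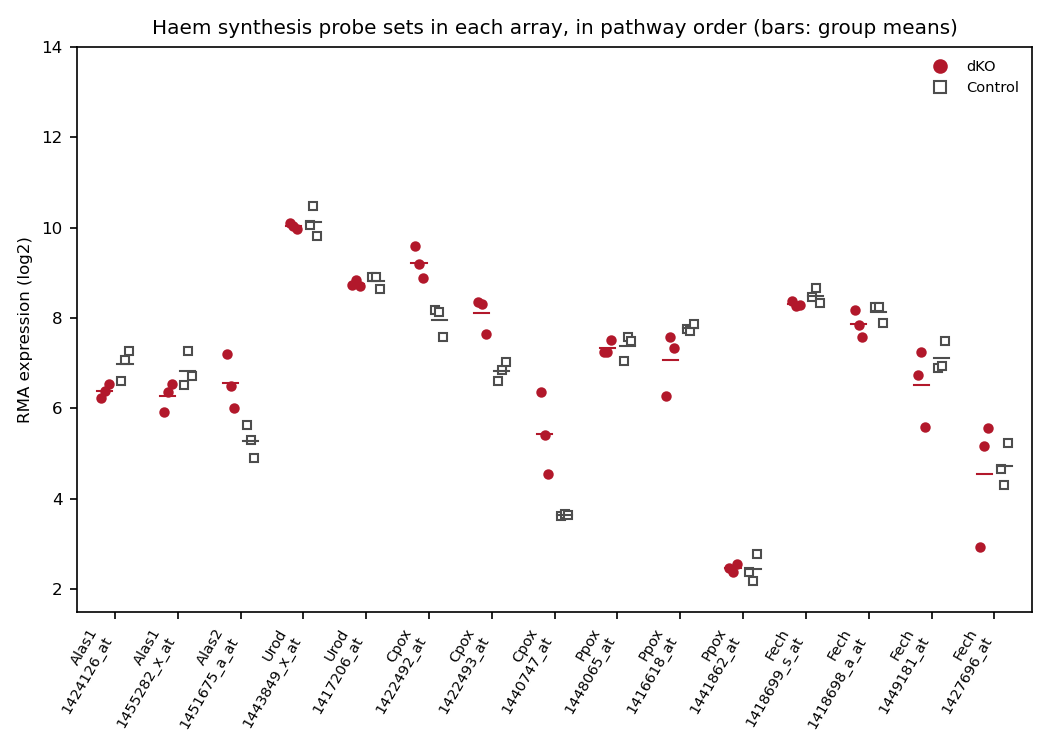
RMA expression (log2) of the probe sets of 6 haem synthesis genes in each array, in the order of the pathway, dKO as filled circles to the left of Control as open squares, with bars at the group means. The dKO arrays stand above all Control arrays at Alas2 and the 3 Cpox probe sets and below them at Alas1 1424126_at and Ppox 1416618_at; the Urod and Fech groups overlap.

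Lists of genes around the pathway are set against the whole array, where 3.6% of probe sets were called, 15.9% had an unadjusted p under 0.05 and 21.3% did not overlap. Of 23 probe sets for mitochondrial iron, iron-sulphur and porphyrin transport, 1 was called higher and 0 lower, with a median log2 fold change of 0.01. In that list 8 had an unadjusted p under 0.05, and the groups did not overlap at 4 that were higher and 5 that were lower in dKO. The called one was 1423651_at of Isca1, an assembly factor for iron-sulphur proteins (0.82 ± 0.18, limma adjusted p = 0.0474), and it was lost without any single array (adjusted p from 0.0584 to 0.16). Of 15 probe sets for haem export, import and breakdown, 0 were called in either direction by limma and 2 had an unadjusted p under 0.05, with a median of 0.09. Of 16 probe sets for haem and iron sensors 2 were called lower, the same 2 had an unadjusted p under 0.05, and both were of Nr1d2, a haem-binding nuclear receptor of the circadian clock (1416959_at, -1.21 ± 0.19, adjusted p = 0.0132); that call was lost without Control 2 (0.052) or Control 3 (0.0649).

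Of 33 probe sets for transcription factors that act on globin genes, 4 were called higher and 0 lower, with a median of 0.21. Gata2 rose by 1.22 ± 0.16 (1450333_a_at, limma adjusted p = 0.00557), Tal1 by 1.13 ± 0.18 (adjusted p = 0.0125) and Gfi1b, a repressor in erythroid and megakaryocytic cells, by 0.95 ± 0.18 (adjusted p = 0.0244). With single arrays left out, the Gfi1b call was lost without any of 4 arrays, dKO 1 and the 3 Control arrays (adjusted p from 0.0633 to 0.109), and the Tal1 call without Control 1 (0.0511) or Control 3 (0.065). Gata1 and Klf1, the factors most tied to adult globin genes, were not called, although every dKO array lay above every Control array at both. Their changes were 0.74 ± 0.20 and 0.58 ± 0.18 (limma adjusted p = 0.0885 and 0.135). In this list 14 probe sets had an unadjusted limma p under 0.05. The groups did not overlap at 12 that were higher and 5 that were lower in dKO.

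Markers of erythroid cells gave calls in both directions, and the 9 calls among 15 megakaryocyte probe sets were all higher in dKO. Of 28 probe sets of erythroid markers (18 genes) 4 were called higher and 4 lower, with a median of 0.55. By gene, 3 were called higher and 2 lower: 3 of the 4 lower probe sets belong to Tfrc and the other to Icam4, named here after its values were seen. At 13 probe sets every dKO array lay above, and at 4 below, the Control arrays. Ank1, the red cell ankyrin, rose by 2.22 ± 0.27 (1419421_at, limma adjusted p = 0.00392). Aqp1 rose by 0.93 ± 0.17 (1416203_at, limma adjusted p = 0.0231) and Cldn13 by 1.40 ± 0.30 (adjusted p = 0.043). Tfrc, the transferrin receptor, fell by 1.51 ± 0.19 (1452661_at, limma adjusted p = 0.00452). With single arrays left out, the Aqp1 call was kept in 1 fit and lost in the others (limma adjusted p from 0.0212 to 0.0978 over all). The Cldn13 call was kept only without Control 3 and lost without any of the other 5 arrays (adjusted p from 0.0859 to 0.146). The summed level of the erythroid list, as log2 of the summed linear values, ran from 13.57 to 14.07 in dKO and from 13.88 to 14.01 in Control. Such a sum mostly follows the brightest probe sets. Here the brightest in both groups was that of Car2, named after its values were seen, at 12.19 in dKO and 12.18 in Control. Next in Control came Tfrc, with 1452661_at at 11.36 in Control and 9.85 in dKO. The erythroid sum without these genes was not tested. The sums of the 12 mast cell and basophil probe sets ran from 12.92 to 13.36 in dKO and from 9.74 to 9.95 in Control, and 5 were called higher and 0 lower. Most of that dKO sum came from Gzmb, a granzyme that cytotoxic lymphocytes also express, at 12.57 ± 0.10 in dKO and 7.03 ± 0.66 in Control (SD, n = 3 each). Without Gzmb, an alternative chosen after seeing the data, the sums of the other 11 ran from 10.87 to 11.98 in dKO and from 9.54 to 9.70 in Control, with 4 called higher, among them Cma1, Mcpt8 and Fcer1a, and 7 not called, those of Hdc, Tpsab1, Tpsb2 and Ms4a2, likewise named after their values were seen. The sums of the 15 megakaryocyte probe sets ran from 13.43 to 13.69 in dKO and from 11.72 to 11.74 in Control, with 9 called higher and 0 lower. Those of the 15 granulocyte and monocyte probe sets ran from 11.08 to 12.42 in dKO and from 13.39 to 14.09 in Control, with 0 called higher and 6 lower, and those of the 18 lymphoid probe sets, with 4 higher and 4 lower, from 12.11 to 12.42 in dKO and from 12.51 to 12.99 in Control. Among the lymphoid genes called higher were the cytotoxic cell genes Nkg7 (1.94, limma adjusted p = 0.00138) and Il2rb (1.80, adjusted p = 0.0121). The lymphoid genes called lower were Dntt (-4.99, limma adjusted p = 0.000255) and Flt3 (-2.73, adjusted p = 0.00196). The part of the mix of cells in the globin and Cpox values was not tested.

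**Figure D4:**
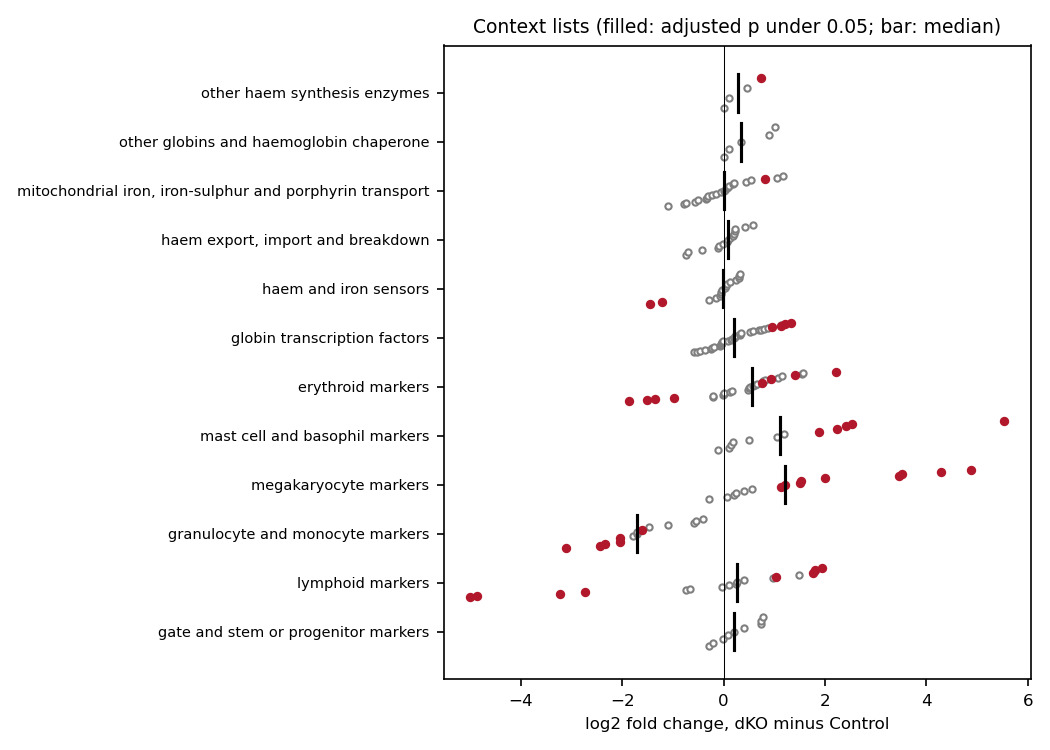
Log2 fold change (dKO minus Control) of each probe set in 12 lists of genes around the globins and haem synthesis; filled points have an adjusted p under 0.05 and black bars are list medians. The medians are 0.55 for erythroid markers, 1.12 for mast cell and basophil markers, 1.21 for megakaryocyte markers and -1.71 for granulocyte and monocyte markers.

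Pearson correlation over the 6 arrays, given as a description, was used to find the genes whose profiles were most like those of the members, among 5881 probe sets with a mean of at least 6 and a range of at least 1. For Hbb-b2 1427865_at these were Plscr1 (r = 0.9992), Trgv4 (0.9988), Tnfsf10 (0.9977), Cdkn1a (0.9975) and Dtnbp1 (0.9968), with log2 fold changes from 0.91 to 5.47. Since the groups lie so far apart there, r mostly restates the difference between them, and 559 of the probe sets had an r above 0.9. For Alas2 they were Nudt18, Zfp597, Sh2d1a, Sla2 and Trib2 (r from 0.988 to 0.993), and for Alas1 they were Pi4k2a, Klhl17, Ank, Mettl21a and Itpripl1 (0.978 to 0.991). For the dim Hba-a1 probe set they were Ccdc12, Gsk3a, Arrb2, Adm and Cnnm2 (0.962 to 0.992). The lists share no gene, and the arrays behind them are the same 6.

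**Figure D5:**
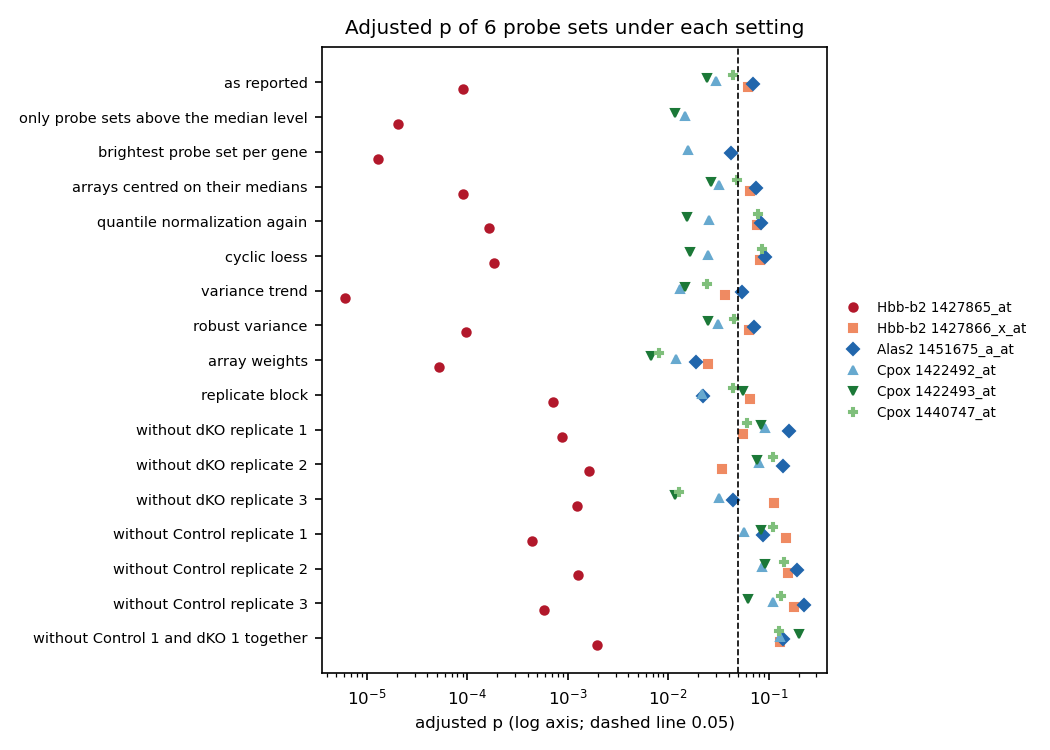
Adjusted p (log axis, dashed line at 0.05) of the 6 member probe sets whose dKO arrays all lay above the Control arrays, under each way of fitting that included the probe set. Hbb-b2 1427865_at is at most 0.00196 throughout, whereas the Cpox, Alas2 and second Hbb-b2 probe sets cross 0.05, and lie between 0.0117 and 0.226 with single arrays left out.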

How the data were processed

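Per the labels' protocols, Trizol RNA of the sorted cells went through 2 rounds of Nugen WT-Ovation Pico amplification and biotin labelling. Per the submitters' processing notes the authors used RMA, so the deposited values are log2 expression; the version is not given in the sources used here. RMA compresses differences of dim probe sets. Of 45101 probe sets, 64 Affymetrix controls were left out. The platform annotation gave 1 symbol to 34945, several to 932 and none to 9160; 34741 of the first were matched to RefSeq (GRCm38.p6) by gene identifier.

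Groups came from sample titles. The fit used limma 3.58.1 in R 4.3.3 (lmFit, eBayes, group only, two-sided) on all probe sets, with Benjamini-Hochberg adjustment and a threshold of 0.05. SDs describe the spread between pools of mice, while standard errors are those of limma, which also borrows from the variances of all probe sets. The 3 arrays per group limit the precision. Deviations of arrays with the same replicate number correlated at 0.06, -0.03 and 0.01, and those with different numbers from -0.06 to 0.06. The numbers were therefore not taken as pairs. These correlations cannot exclude pairing, and a fit with a replicate block is given as an alternative. The steps were tested on simulated data. Named genes were all members, up to 4 called genes with the smallest p from each list, all genes of the small globin and enzyme lists, the targeted and gate genes, Xist, and the 5 closest profiles of 4 members. The members and lists were chosen with earlier results of these data known. Alternatives covered dim probe sets, the brightest probe set per gene, 3 scalings, variance models, array weights, a replicate block, other thresholds and leaving arrays out. Figures were drawn with matplotlib 3.10.9.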

Additional observations from a re-analysis of the deposited data

How the results depend on the processing

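Over the whole array 1622 probe sets were called, 822 higher and 800 lower in dKO, and 4 of them were members, all higher. With single arrays left out the count was 661 to 1472 (382 to 861 higher, 279 to 611 lower), and 1 to 5 members were called higher and 0 lower; it was 864 without dKO 1, 1060 without dKO 2, 918 without Control 1, 661 without Control 2 and 691 without Control 3. Array weights gave 2509 (1238 higher, 1271 lower), the brightest probe set per gene 519 lower, a threshold of 0.01 515 (295 higher, 220 lower) with 1 member, and a threshold of 0.1 2666 with 1440 lower. Without Control 1 and dKO 1 together the count was 565 (293 higher, 272 lower) with 1 member. With the replicate block 1252 were called and 4 members; Alas2 was then called (adjusted p = 0.0222), and Cpox 1422493_at was not (0.0558). Quantile normalization and cyclic loess each left 3 members called, without Cpox 1440747_at. Hbb-b2 1427865_at was called under all 16 alternatives. Of the single probe set values 940 kept their side of the threshold and direction, 83 lost their call, 10 gained one and 27 changed sign, none of them a called one. Ppox 1448065_at (-0.03 as reported) changed sign after quantile normalization (0.0145) and cyclic loess (0.0148), and Ppox 1441862_at (0.02) after quantile normalization (-0.0356), cyclic loess (-0.048), with array weights (-0.0139) and without Control 1 and dKO 1 together (-0.0192). In that last setting Fech 1427696_at (-0.17 as reported) stood at 0.608 and Uros 1423482_at (0.01) at -0.115, and Hba-a2 1427219_at (0.02) stood at -0.0321 with array weights. With single arrays left out, 9 values crossed 0: Ppox 1448065_at ran from -0.1893 to 0.0683, Ppox 1441862_at from -0.1168 to 0.1856, Urod 1443849_x_at from -0.2272 to 0.1031, Fech 1427696_at from -0.6759 to 0.6405, Alad 1457306_at from -0.2069 to 0.3961, Uros 1423482_at from -0.0745 to 0.1539, Hba-a2 1427219_at from -0.0673 to 0.0967, Hba-x from -0.0139 to 0.2573 and Hbb-y 1436717_x_at from -0.0055 to 1.4058. Apart from leaving out arrays, which also lowers the number of samples, the cause was not tested. With 3 pools per group and p adjusted over the whole array, changes near 2-fold can go uncalled. In simulated data with 200 changed probe sets, fewer than were called here, 12.6% of 2-fold and 73.2% of 4-fold changes were recovered. The Benjamini-Hochberg adjustment is stricter when fewer probe sets change, so these shares may understate recovery in the real data. Dim probe sets such as that of Hba-a1 also limit what can be read from these arrays.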
